A study of Drosophila melanogaster with 4 samples.

Results

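The mitosis genes described here are 40 Drosophila melanogaster genes whose products carry out or time cell division. They were chosen by symbol from textbook knowledge and not by their levels, although earlier results of these data were known. They are 40 of the 17875 genes counted in the series, and each of them had at least 1 unique molecular identifier (UMI, a tag that marks an RNA molecule before amplification) in every library. The study profiled single cells of whole embryos of the wild-type strain OregonR at stages 10-12, the early part of organ formation, and at stages 13-16, its later part. Each stage had 2 libraries made with the 3′ droplet chemistry of 10x Genomics, and these are the replicates (n = 2 per stage). Embryos received no treatment and differed in age and in the temperature at which they were kept, so stage, temperature and collection cannot be told apart. Each library mixed many embryos.

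Cells of the fly embryo leave the rapid nuclear cycles of the syncytium and then divide a few more times, each time when stg, the fly Cdc25 phosphatase, is transcribed and activates Cdk1. Neuroblasts, the stem cell-like progenitors of the central nervous system, go on dividing through much of embryogenesis, whereas most epidermal cells stop in G1, many larval tissues enter endocycles without mitosis, and neurons and muscles are postmitotic. The primordial germ cells stop dividing early and carry maternal RNA of CycB, whose translation is held back there by Nanos and Pumilio. A mitosis needs cyclins and Cdk1 to begin, kinases of the Polo and Aurora families and kinesins to build the spindle, condensin and topoisomerase to compact chromosomes, a kinetochore and its checkpoint to attach them, the anaphase-promoting complex to separate them, and a central spindle to divide the cell.

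The libraries held 20529 and 13758 barcodes at stages 10-12 and 39078 and 36217 barcodes at stages 13-16, with 71622535 to 394684653 UMIs. After removal of likely empty clusters and of likely doublets, 13478 and 7437 cells were kept at stages 10-12 and 22551 and 21428 at stages 13-16, with median depths of 4407, 2669, 2504 and 7980.5 UMIs per cell for replicates 1 and 2 of each stage in turn. Between 0.683% and 1.11% of the barcodes of the smaller library of a pair were shared with the other library. The cells were clustered without the mitosis genes and without other genes of the cell cycle, and a cluster was called after a cell type only by its markers ("X-like"). Other genes that follow the cell cycle could still shape the clusters. Cells called neural progenitor-like were led by mira, wor and dpn, the genes that mark neuroblasts, and numbered 488, 555, 113 and 212 in the 4 libraries. Cells called germ cell-like were led by pgc, nanos and the maternal RNA of dhd, and numbered 144, 81, 886 and 258. At stages 13-16 the neural progenitors were a single cluster of 325 cells, and a newborn neuron-like cluster of 2367 cells also had wor and mira among its leading genes. The neural progenitor cells of stages 13-16 were deep, with medians of 5589 and 18794 UMIs.

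Mitosis gene RNA was also present in the droplets removed as likely empty. These held summed levels of the 40 genes of 4993 and 5218 counts per 1000000 UMIs of the class in its library (CPM) at stages 10-12 and 1714 and 3830 CPM at stages 13-16, against 5036, 5072, 1813 and 3047 CPM over all cells kept. Those droplets had median depths of 1359 to 2313 UMIs, and broken or small cells may be among them beside free RNA. Their level is therefore given beside the levels of the classes. Because the chemistry counts an RNA molecule once at its 3′ end, CPM values of different genes are not divided by gene length.

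Mitosis gene RNA was most abundant in neural progenitor-like cells. Their summed level was 12145 and 10470 CPM in replicates 1 and 2 of stages 10-12, and 8626 and 13954 CPM at stages 13-16. In each library this was the highest sum of any class, at 2.43 and 2.01 times the removed droplets at stages 10-12 and 5.03 and 3.64 times at stages 13-16. At stages 10-12, sensory organ-like cells followed with 7940 and 7391 CPM. Behind them the order differed between the libraries, with 6206 and 6166 CPM in newborn neuron-like cells, 6167 and 5397 CPM in glia-like cells, 5701 and 5604 CPM in mesoderm precursor-like cells and 5682 and 6347 CPM in germ cell-like cells. The range of germ cells overlapped that of each of the other 3. At stages 13-16, germ cell-like cells stood second with 5256 and 6761 CPM, and newborn neurons followed with 3379 and 5837 CPM, lower within each library although the ranges overlapped. Of 21 classes at stages 10-12, 8 lay above the removed droplets in both libraries and 12 lay below them in both. Of 24 classes at stages 13-16, 6 lay above in both and 16 below in both. Among classes with at least 20 cells, the lowest sums at stages 10-12 were those of amnioserosa-like cells, at 2594 and 2365 CPM. At stages 13-16 the lowest was fat body-like cells in replicate 1, at 968.8 CPM, and salivary gland-like cells in replicate 2, at 921 CPM.

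**Figure D1:**
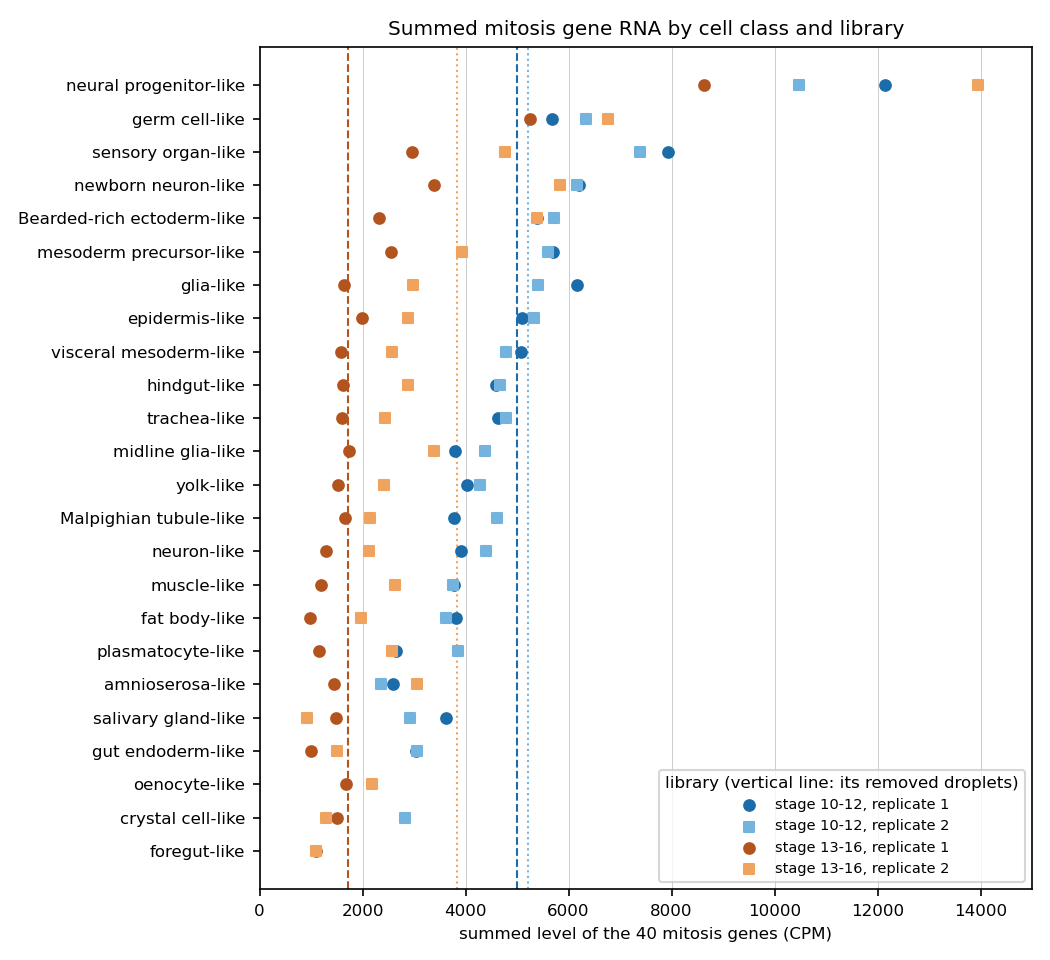
Summed level of the 40 mitosis genes in CPM (x axis) in each cell class (y axis), with a point for each library and a vertical line at the level of that library's removed droplets. Neural progenitor-like cells lie farthest right in all 4 libraries, from 8626 to 13954 CPM, and most classes at stages 13-16 lie left of their library's line.

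The single genes mostly shared this order. Among classes with at least 20 cells in a library, 27 of the 40 genes had their highest level in neural progenitor-like cells in all 4 libraries and 7 more in 3 of them. CycB alone was highest in germ cell-like cells in every library. pim was highest in neural progenitors at stages 10-12 and in germ cells at stages 13-16. stg was highest in trachea-like cells at stages 10-12, with 1152 and 1768 CPM, and in neural progenitors at stages 13-16. Bub1, which stayed at 29.3 CPM or less in neural progenitors, was highest there in no library. All 40 genes were above the removed droplets of their own library in neural progenitors in every library, by 1.11 to 16.2 times. Neither the class with the highest level nor the position against removed droplets was counted over all genes.

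Whether neural progenitor-like cells differ from the rest of the embryo in these genes was tested on UMIs summed per library, with the library as a block. All 40 genes were called higher in neural progenitor-like cells than in the remaining cells (edgeR quasi-likelihood F test, Benjamini-Hochberg adjusted p up to 0.05, average over both stages), and none was called lower. Of the 9502 genes tested, 31.0% were called higher and 42.5% lower. The median log2 difference of the 40 genes was 2.24, against -0.22 for all genes tested. Against the removed droplets in place of the remaining cells, a comparison added after the data were seen, all 40 genes were again called higher and none lower, with 31.5% of all genes higher and 41.1% lower. In these sums, fewer cells with the RNA and less RNA per cell cannot be told apart.

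The mitotic cyclins and Cdk1 form the kinase that starts mitosis. CycB3, whose product acts last among these cyclins and favors anaphase, had 1068 and 804.5 CPM in neural progenitors at stages 10-12 and 495.7 and 843.2 CPM at stages 13-16, against 235.1, 196.0, 46.1 and 77.0 CPM over all cells. No neural progenitor library overlapped with all cells, and the log2 difference from the remaining cells was 3.24 (SE 0.08, adjusted p = 1.2e-28 by edgeR). CycA, which is needed for entry into mitosis, had 1019 and 779.5 CPM in neural progenitors at stages 10-12 and 698.3 and 1163 CPM at stages 13-16, against 277.8, 249.8, 90.6 and 142.0 CPM over all cells. Its difference was 2.75 (SE 0.08, adjusted p = 1.65e-26 by edgeR). CycB had 659.2 and 632.6 CPM in neural progenitors at stages 10-12, and 386.7 and 729.2 CPM at stages 13-16, with a difference of 1.79 (SE 0.08). Cdk1, their catalytic partner, had 343.1, 353.4, 246.3 and 351.7 CPM in the 4 neural progenitor libraries and a difference of 1.50 (SE 0.08). stg had the second smallest difference of the 40 genes, 0.88 (SE 0.08, adjusted p = 3.82e-12 by edgeR). It had 1084, 1021, 814.2 and 2278 CPM in neural progenitors and 680.2, 801.2, 415.1 and 1388 CPM in removed droplets.

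Genes for the exit from mitosis were higher too. fzy, the Cdc20 activator of the anaphase-promoting complex, had 444.0 and 399.8 CPM in neural progenitors at stages 10-12 and 250.9 and 480.1 CPM at stages 13-16, and its difference from the remaining cells was 2.28 (SE 0.08). Over all cells, fzy had 191.8, 189.1, 34.7 and 71.3 CPM, below every neural progenitor library. thr, a subunit of the fly separase, and pim, the fly securin that holds separase back, differed by 2.60 and 2.18. vih, the E2 enzyme of the same pathway, differed by 1.04 (SE 0.08), among the smallest differences of the 40 genes.

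Chromosome and kinetochore genes differed by 1.56 to 2.95. glu, the SMC4 subunit of condensin, had 331.9 and 193.9 CPM in neural progenitors at stages 10-12 and 182.6 and 290.3 CPM at stages 13-16, against 87.2, 62.5, 20.1 and 28.1 CPM over all cells. The lowest neural progenitor library was above the highest value over all cells, and the difference was 2.95 (SE 0.09). cid, the centromeric histone H3 (CENP-A), had 98.2, 88.9, 44.5 and 85.5 CPM in neural progenitors against 26.8, 25.6, 5.88 and 8.76 CPM over all cells, a difference of 2.91 (SE 0.12). SMC2, the partner of glu in condensin, differed by 2.90, Top2, the topoisomerase that untangles sister chromatids, by 2.57, and the condensin subunits Cap-D2, Cap-G and barr by 2.51, 2.00 and 1.56. At the kinetochore, Ndc80, Nuf2 and Spc25 of its microtubule-binding complex differed by 2.39, 2.02 and 1.58, Cenp-C, which ties the kinetochore to cid, by 2.19, and Mis12 by 1.89.

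Genes of the spindle, its checkpoint and cytokinesis differed by 0.59 to 2.88. Among checkpoint genes, mad2 differed by 2.88, BubR1 by 2.44 and Bub3 by 1.94, and Bub1 had the smallest difference of the 40 genes at 0.59 (SE 0.13, adjusted p = 9.77e-05 by edgeR). The chromosomal passenger complex, which corrects faulty attachments, had differences of 2.73 for Incenp, 2.43 for its kinase aurB, 2.35 for borr (borealin) and 2.31 for Det (survivin). The kinases polo and aurA differed by 2.05 and 1.89. The minus end-directed kinesin ncd differed by 2.81, the kinesin-5 Klp61F by 2.44 and the depolymerizing kinesin Klp10A by 1.70. For cytokinesis, pav and tum (centralspindlin), sti (citron kinase) and scra (anillin) differed by 2.14 to 2.29, and pbl and feo (the bundler of the central spindle) by 1.73 and 1.62.

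**Figure D2:**
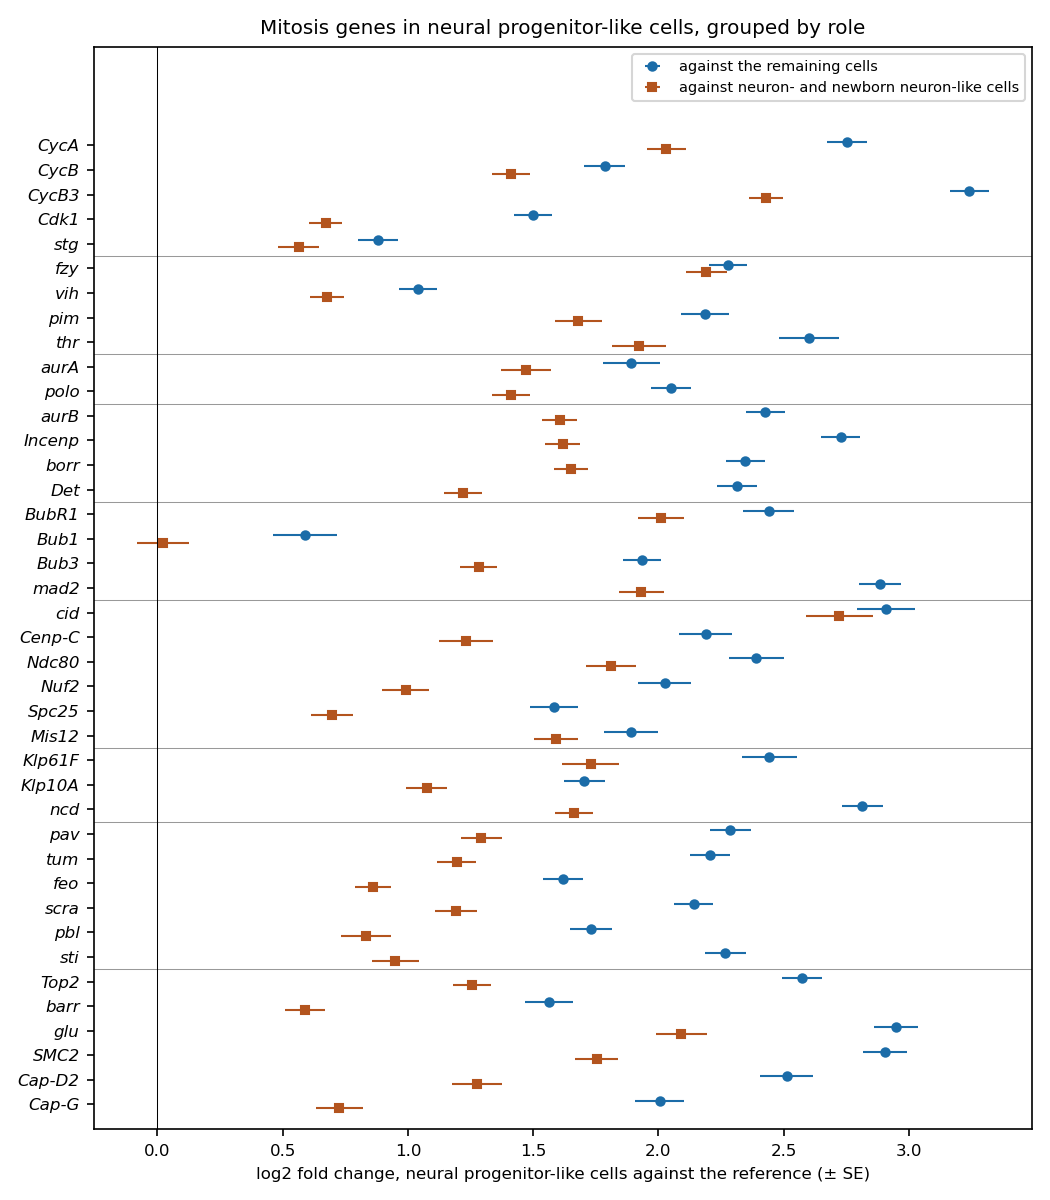
Log2 difference of each of the 40 mitosis genes (y axis) in neural progenitor-like cells against the remaining cells and against neurons (x axis), with bars of 1 SE from edgeR. All 40 differences from the remaining cells lie right of 0, from 0.59 for Bub1 to 3.24 for CycB3.

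The difference between neural progenitors and the remaining cells was larger at stages 13-16 than at stages 10-12. A term for the difference between stages was called higher for 39 of the 40 genes, all but Bub1, and for none lower, with 10.6% of all genes called higher and 6.14% lower. The median term was 1.49 on the log2 scale against 0.06 for all genes. The largest terms were 1.96 (SE 0.21) for Klp61F, 1.91 (SE 0.16) for pav and 1.88 (SE 0.17) for SMC2. Klp61F had 109.2 and 73.6 CPM in neural progenitors at stages 10-12 and 100.5 and 122.1 CPM at stages 13-16, while over all cells it had 42.1 and 37.3 CPM and then 9.87 and 17.2 CPM. pav had 244.0 and 202.5 CPM and then 181.9 and 273.0 CPM in neural progenitors, and 108.3 and 102.8 CPM and then 22.4 and 39.8 CPM over all cells. SMC2 had 211.4, 141.2, 175.7 and 216.7 CPM in neural progenitors, and 64.0, 50.2, 14.5 and 22.5 CPM over all cells. The neural progenitor values of both stages overlapped for each of these genes, whereas those over all cells did not. With no doublets removed the count was 13 of 40, and the neural progenitor-like cluster of stages 13-16 then held 3489 cells in place of 325. At a clustering resolution of 1, where it held 2873 cells, the count was 36. It was 23 with removed droplets as the reference. These counts are given without the share of all genes called in the same setting.

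Neural progenitors were also compared with the neuron-like and newborn neuron-like cells joined. The newborn neuron-like cells include the late cluster with wor and mira among its leading genes. With the neuron-like cells alone, a comparison added after the data were seen, the count of genes called was 39 as well, and the difference was 3.04 for CycA in place of 2.03, 2.31 for CycB in place of 1.41, 1.67 for Cdk1 in place of 0.67 and 1.17 for stg in place of 0.56. Against the joined cells, 39 of the 40 genes were called higher and none lower, against 28.3% and 36.0% of the 7406 genes tested, and the median difference was 1.35 against -0.09 for all genes. The gene not called was Bub1, with a difference of 0.02 and a 95% confidence interval from -0.21 to 0.25. cid had 15.2 and 18.3 CPM in newborn neurons at stages 10-12 and 10.3 and 12.9 CPM at stages 13-16, and 17.0, 20.9, 2.81 and 4.44 CPM in neurons. Its difference of 2.72 (SE 0.13) from the joined neurons was the largest. CycB3 had 269.2, 201.8, 98.9 and 166.4 CPM in newborn neurons and 146.6, 113.6, 28.1 and 46.5 CPM in neurons, and the difference was 2.43 (SE 0.07). fzy had 111.3, 114.8, 55.4 and 100.1 CPM in newborn neurons and 134.2, 156.5, 22.5 and 41.2 CPM in neurons, and the difference was 2.19 (SE 0.08). All 4 neural progenitor libraries lay above all neuron libraries for these genes. CycA, CycB, Cdk1 and stg differed by 2.03, 1.41, 0.67 and 0.56.

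The difference from neurons also depended on the stage. The term for the difference between stages was called higher for 35 of 40 genes and lower for none, against 8.41% and 6.02% of all genes. The largest terms were 1.70 (SE 0.20) for pbl, 1.51 (SE 0.21) for thr and 1.46 (SE 0.19) for Cap-G. pbl had 142.1 and 154.1 CPM in neural progenitors at stages 10-12 and 194.1 and 241.9 CPM at stages 13-16, while in neurons it had 134.7 and 204.0 CPM and then 39.6 and 34.2 CPM. thr had 57.5, 47.3, 52.2 and 74.4 CPM in neural progenitors and 21.7, 8.11, 4.35 and 7.29 CPM in neurons. Cap-G had 125.5, 92.6, 121.2 and 158.9 CPM in neural progenitors and 39.8, 49.8, 13.6 and 27.9 CPM in neurons. In newborn neurons pbl had 109.1, 175.1, 74.3 and 107.8 CPM, thr 21.5, 27.5, 9.17 and 16.2 CPM, and Cap-G 118.0, 112.8, 58.7 and 84.9 CPM. For pbl, neural progenitors and both kinds of neurons overlapped at stages 10-12 and did not at stages 13-16. With no doublets removed, none of the 40 genes was called for this term.

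In newborn neuron-like cells, 27 of the 40 genes were above the removed droplets in all 4 libraries. The number was 31 and 28 in the early libraries, 40 and 38 in the late ones. In the more mature neuron-like cells none of the 40 genes was above the droplets in all libraries, and 25 were above them in no library. These counts were not made over all genes, so they are not read as particular to mitosis genes.

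**Figure D3:**
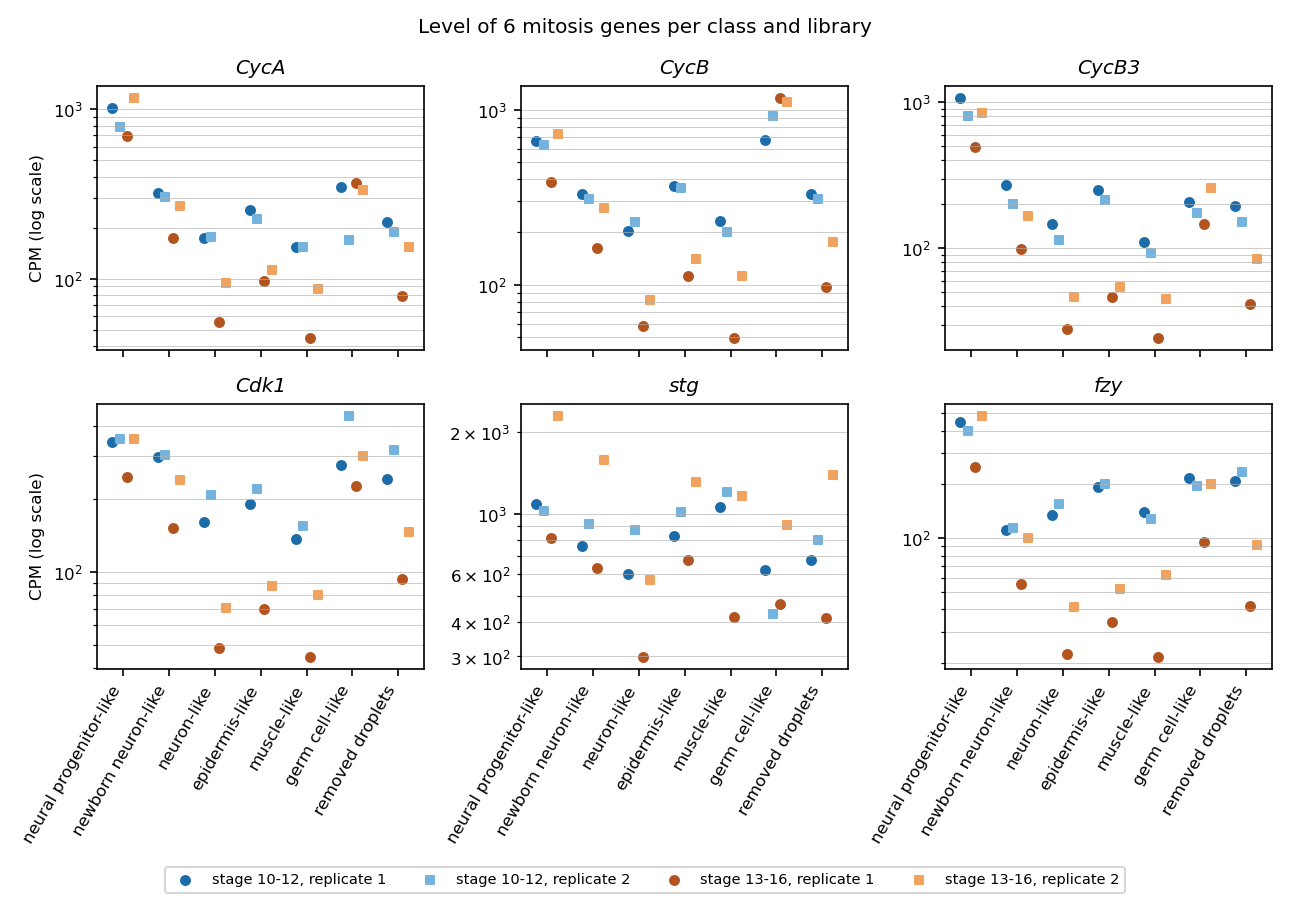
CPM on a log scale (y axis) of CycA, CycB, CycB3, Cdk1, stg and fzy in each of the main classes and in removed droplets (x axis), with a point for each library. For CycA, CycB3 and fzy neural progenitor-like cells are highest in all 4 libraries, and for CycB germ cell-like cells are, at 668.0 to 1166 CPM.

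Across the embryo as a whole, mitosis gene RNA was lower at stages 13-16 than at stages 10-12. Summed over all cells, 35 of the 40 genes fell and none rose (edgeR, n = 2 libraries against 2), whereas 11.3% of the 12032 genes tested rose and 9.51% fell. The median log2 change was -1.67, against 0.01 for all genes. Both early libraries were above both late ones for 38 genes, and none had the reverse order. The share of all genes in either order was not counted. borr had 257.6 and 258.8 CPM at stages 10-12 and 52.4 and 89.6 CPM at stages 13-16, a fall of 4.18-fold (log2 change -2.06, SE 0.25, adjusted p = 0.0195). fzy had 191.8 and 189.1 CPM and then 34.7 and 71.3 CPM, a fall of 4.15-fold (log2 change -2.05, SE 0.31). aurA had 41.4 and 37.0 CPM and then 7.79 and 14.2 CPM, a fall of 4.08-fold (log2 change -2.03, SE 0.26). In all of these genes the fall was larger than the difference between the late libraries. CycA, CycB, CycB3 and Cdk1 fell by 1.37, 1.49, 2.00 and 1.49 on the log2 scale.

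The genes that did not pass were stg, vih, Bub1, Mis12 and feo. stg had 725.7 and 853.9 CPM at stages 10-12 and 494.8 and 1047 CPM at stages 13-16, so that the late libraries lay on both sides of the early ones. Its log2 change was -0.25, with an interval from -1.15 to 0.65. The late libraries differed from each other for most genes, with replicate 2 above replicate 1. The study inferred from the ordering of salivary gland and tracheal cells that the first late collection was richer in older embryos than the second. Age within the stage and replicate therefore cannot be told apart. Without stage 13-16 replicate 1, 28 genes fell, Cdk1 was no longer called (log2 change -1.34, adjusted p = 0.056 by edgeR) and the change of stg was 0.12 in place of -0.25.

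The RNA in removed droplets moved with the stage in the same direction. There 32 of the 40 genes fell and none rose, against 7.88% and 15.1% of the genes tested. Both early libraries were above both late ones for 36 of the 40 genes, an order that was not counted over all genes. The part of free RNA in the falls within classes was not tested.

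In epidermis-like cells, 35 genes fell and none rose, against 11.1% and 18.8% of the 9854 genes tested, with a median change of -1.99 against -0.02. cid had 23.6 and 24.2 CPM at stages 10-12 and 5.36 and 4.62 CPM at stages 13-16, a fall of 5.57-fold (log2 change -2.48, SE 0.27, adjusted p = 0.00812 by edgeR). CycB3 had 251.3 and 213.5 CPM and then 46.1 and 54.4 CPM, a fall of 5.37-fold (log2 change -2.42, SE 0.25). fzy had 193.5 and 200.5 CPM and then 33.9 and 52.2 CPM, a fall of 5.33-fold (SE 0.30 on the log2 scale). The stages did not overlap for any of these genes. CycA, CycB and Cdk1 fell by 1.42, 1.74 and 1.60 on the log2 scale. CycA and Cdk1 lost the call without stage 10-12 replicate 2 (adjusted p = 0.054 and 0.0513 by edgeR), and CycA also without replicate 1 of that stage (adjusted p = 0.0956 by edgeR). stg had 830.3 and 1013 CPM and then 680.2 and 1312 CPM in epidermis, with a change of -0.12 and an interval from -1.01 to 0.77. vih, Bub1, Mis12 and pbl did not pass either.

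In muscle-like cells, 34 genes fell and none rose, against 13.2% and 18.4% of the 9114 genes tested, with a median change of -1.62 against 0.01. pav, the kinesin of centralspindlin, had 71.9 and 71.4 CPM at stages 10-12 and 10.7 and 27.2 CPM at stages 13-16, a fall of 4.16-fold (log2 change -2.06, SE 0.34, adjusted p = 0.00776 by edgeR). sti had 64.1 and 55.1 CPM and then 9.72 and 23.4 CPM, a fall of 3.93-fold (log2 change -1.97, SE 0.32). aurA had 33.5 and 24.5 CPM and then 4.42 and 11.7 CPM, a fall of 3.90-fold (log2 change -1.96, SE 0.37). The stages did not overlap for these genes, but replicate 2 of stages 13-16 was above replicate 1 in each. CycA, CycB, CycB3, Cdk1 and fzy fell by 1.35, 1.55, 1.67, 1.35 and 1.81 on the log2 scale. stg, vih, Bub1, Mis12, Klp10A and pbl did not pass. For stg, with 1064 and 1206 CPM and then 419.4 and 1165 CPM, the change was -0.67, and without stage 13-16 replicate 2 it was -1.33 and called (adjusted p = 0.017 by edgeR).

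No fall was detected in neural progenitor-like cells. None of the 40 genes was called in either direction (edgeR), against 5.23% of the 7038 genes tested that rose and 4.43% that fell. At an unadjusted p under 0.05 there were 3, with no share of all genes given, and DESeq2 called 0. The median change was -0.05, and changes ran from -0.51 (cid) to 0.56 (pbl). CycA changed by 0.04, with an interval from -0.50 to 0.57, CycB by -0.24 (interval -0.77 to 0.29), and Cdk1 by -0.23 (interval -0.64 to 0.18). CycB3 changed by -0.50 (interval -1.04 to 0.04) and fzy by -0.23 (interval -0.75 to 0.29). stg changed by 0.50 (interval -0.31 to 1.30), with a wide gap between its late libraries at 814.2 and 2278 CPM. Both stages overlapped for 33 of the 40 genes, a count not made over all genes. Leaving out a late library changed single calls: without stage 13-16 replicate 1, 2 genes rose, stg among them (log2 change 0.97), and without stage 13-16 replicate 2, 3 fell, CycB3 among them (log2 change -0.72). With no doublets removed, where the late neural progenitor-like cluster was far larger, as given above, 13 genes fell. In the main setting the late newborn neuron-like cluster with wor and mira among its leading genes was not part of the class.

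**Figure D4:**
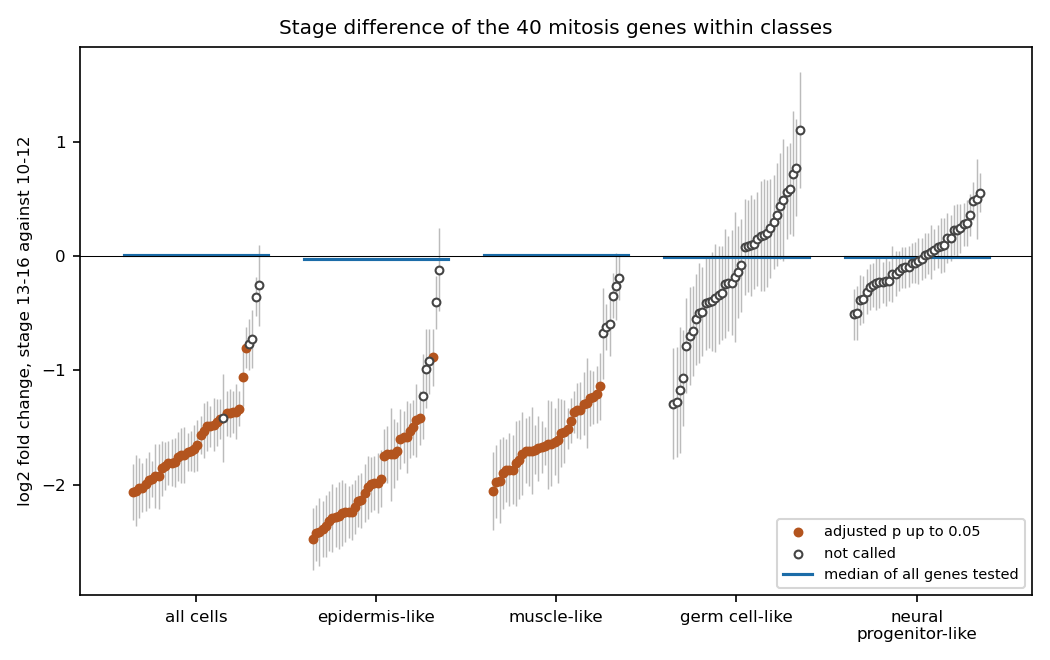
Log2 fold change of each of the 40 mitosis genes from stages 10-12 to stages 13-16 (y axis) in all cells and in 4 classes (x axis), with bars of 1 SE, genes called at an adjusted p up to 0.05 in their own color and a line at the median of all genes tested. The genes lie around -1.67 in all cells, -1.99 in epidermis and -1.62 in muscle, and around 0 in neural progenitors and germ cells, where none was called.

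Germ cell-like cells had CycB as their leading mitosis gene. CycB had 668.0 and 916.7 CPM at stages 10-12 and 1166 and 1101 CPM at stages 13-16, against 329.6, 318.9, 112.0 and 150.8 CPM over all cells and 331.7, 309.3, 97.0 and 176.5 CPM in removed droplets. All germ cell libraries lay above all of the others, and the log2 difference from the remaining cells was 2.07 (SE 0.23, adjusted p = 5.71e-09 by edgeR). Averaged over both stages, 25 of the 40 genes were called higher than in the remaining cells and none lower. Of the 9657 genes tested, 13.3% were called higher and 15.3% lower. The median difference was 0.60 against -0.21 for all genes.

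mad2, a checkpoint gene, had 137.3 and 146.2 CPM in germ cells at stages 10-12 and 141.9 and 156.9 CPM at stages 13-16, and differed by 1.78 (SE 0.21). pim had 103.7 and 127.6 CPM and then 165.4 and 174.7 CPM, and differed by 1.74 (SE 0.21). Over all cells mad2 had 59.4, 62.4, 22.0 and 24.5 CPM and pim 52.0, 60.9, 23.8 and 25.5 CPM, so neither overlapped. thr, the partner of pim in the separase complex, differed by 1.42, and aurA by 1.29. Cdk1 differed by 0.96 (SE 0.21), fzy by 0.58 (SE 0.21) and CycB3 by 0.56 (SE 0.21). These differences are averages over both stages. At stages 10-12 CycB3 had 207.4 and 174.1 CPM in germ cells, below the 235.1 and 196.0 CPM over all cells. At stages 13-16 it had 147.6 and 256.7 CPM, above the 46.1 and 77.0 CPM over all cells. Cdk1 and fzy lay above all cells in every library. The calls of fzy and CycB3 did not hold without stage 10-12 replicate 1 (adjusted p = 0.183 and 0.175 by edgeR), without stage 13-16 replicate 1 (0.13 and 0.156) or without stage 13-16 replicate 2 (0.118 and 0.146). CycA, with 347.7, 169.4, 367.2 and 331.6 CPM, did not pass (difference 0.56, adjusted p = 0.0712 by edgeR) and was called without stage 10-12 replicate 2 (0.86) or stage 13-16 replicate 2 (0.78). stg had 625.3 and 429.3 CPM at stages 10-12 and 467.9 and 907.8 CPM at stages 13-16 and did not pass, at a difference of -0.61 (adjusted p = 0.0511 by edgeR). It was called lower without stage 10-12 replicate 1 (difference -0.93). The number of genes called higher was 15 without replicate 1 of either stage. Against removed droplets, 17 were called higher and 2 lower, with 16.6% and 16.5% of all genes.

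Between the stages no mitosis gene was called in germ cells (edgeR), where 0.0788% of the 6344 genes tested rose and 0.0158% fell. At an unadjusted p under 0.05 there were 4, with no share of all genes given, and DESeq2 called 0. CycB changed by 0.56 (interval -0.32 to 1.44), CycA by 0.44 (interval -0.56 to 1.44), CycB3 by 0.08 (interval -0.83 to 0.98), Cdk1 by -0.40 (interval -1.28 to 0.47), stg by 0.36 (interval -0.61 to 1.34) and fzy by -0.50 (interval -1.43 to 0.44). These intervals are wide, with 144 and 81 cells at stages 10-12.

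The gap between germ cells and the remaining cells was larger at stages 13-16, when mitosis gene levels over all cells were themselves lower. The term for the difference between stages was called higher for 20 genes and lower for none, against 0.973% and 0.766% of all genes, with a median of 1.59 against 0.20 for all genes. The largest terms were 2.71 (SE 0.55) for thr, 2.20 (SE 0.45) for CycB and 2.16 (SE 0.44) for glu. thr had 15.3 and 34.8 CPM in germ cells at stages 10-12 and 53.0 and 53.5 CPM at stages 13-16, against 19.0, 18.9, 6.85 and 8.82 CPM over all cells. glu had 73.2 and 113.7 CPM and then 114.7 and 108.4 CPM in germ cells. The stages did not overlap for thr and overlapped for glu. This count was 10 without stage 10-12 replicate 2 or stage 13-16 replicate 2 and 12 without stage 13-16 replicate 1. It was 7 with another scaling of the libraries (RLE), 12 with DESeq2, 35 with no doublets removed, 1 with removed droplets as the reference, and 1 with a minimum depth in place of the removal of empty clusters. These counts are given without the share of all genes called in the same setting.

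Epidermis and muscle were near or below the rest of the embryo. In epidermis-like cells, 1 gene was called higher than in the remaining cells and 5 lower, against 18.3% and 25.4% of the 10491 genes tested, and the median difference was -0.05 against -0.12. The gene called higher was stg, whose values are given above, at 0.43 (SE 0.08, adjusted p = 0.00893 by edgeR). Nuf2 had 33.4 and 37.1 CPM in epidermis at stages 10-12 and 11.5 and 13.7 CPM at stages 13-16, against 43.5, 49.3, 14.98 and 23.4 CPM over all cells, a difference of -0.54 (SE 0.08). mad2 had 50.2, 57.3, 17.4 and 13.3 CPM in epidermis, and its difference was -0.43 (SE 0.09). Det had 92.3, 100.0, 26.4 and 24.5 CPM there against 104.5, 111.0, 34.2 and 40.3 CPM over all cells, a difference of -0.39 (SE 0.07). In each library these genes were lower in epidermis than over all cells. Bub3 and aurB were called lower by smaller differences. stg, mad2 and Det lost the call without stage 10-12 replicate 1 (adjusted p = 0.366, 0.156 and 0.167 by edgeR) and without stage 10-12 replicate 2 (0.164, 0.0666 and 0.109). With either early library left out, 0 genes were called higher and 1 lower. Without stage 13-16 replicate 1, 3 were called higher and 8 lower, and without stage 13-16 replicate 2, 8 were called higher. CycA, CycB, CycB3, Cdk1 and fzy differed from the remaining cells by -0.12 to 0.10. Against removed droplets, 1 gene was called higher and 10 lower, with 16.8% and 18.6% of all genes. No gene was called for the difference between stages (edgeR), where 0.00953% of all genes were called higher and 0% lower. At an unadjusted p under 0.05 there were 23 of the 40. The share of all genes under that threshold is not given, so this count is not read as particular to mitosis genes. Without stage 13-16 replicate 2, 16 genes were called lower for this difference, and without stage 13-16 replicate 1, 4 were.

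In muscle-like cells, 31 genes were called lower than in the remaining cells and 3 higher, against 38.0% and 29.6% of the 10225 genes tested, with a median difference of -0.58 against -0.12. cid had 10.7 and 6.87 CPM in muscle at stages 10-12 and 1.92 and 4.13 CPM at stages 13-16, and its difference was -1.28 (SE 0.15). glu had 36.6, 28.0, 6.31 and 12.7 CPM, and differed by -1.14 (SE 0.11). Cap-D2 had 16.5, 13.7, 3.00 and 7.78 CPM in muscle against 38.9, 33.2, 8.93 and 15.7 CPM over all cells, and differed by -1.09 (SE 0.12). In each library the level of these genes in muscle was below that over all cells. CycA, CycB, CycB3 and Cdk1 differed by -0.62, -0.48, -0.78 and -0.29. The calls of CycB and Cdk1 did not hold without stage 10-12 replicate 1 (adjusted p = 0.0636 and 0.0707 by edgeR), nor did that of Cdk1 without stage 10-12 replicate 2 (0.0685). fzy did not pass at -0.23 and was called without stage 13-16 replicate 2 (-0.35).

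The 3 genes called higher in muscle were stg, with the levels given for the stages, at 0.60 (SE 0.07), Nuf2, at 0.28 (SE 0.09), and vih, at 0.23 (SE 0.07). Nuf2 had 46.5, 50.2, 12.1 and 24.3 CPM in muscle, on both sides of its levels over all cells. vih had 245.1, 203.3, 144.8 and 234.8 CPM in muscle and 273.6, 258.3, 135.3 and 221.7 CPM over all cells. Both lost the call without stage 10-12 replicate 1 (adjusted p = 0.179 and 0.133 by edgeR), which left 1 gene called higher. Against removed droplets, 2 genes were called higher and 33 lower, with 29.4% and 33.3% of all genes, and Nuf2 differed by -0.14 there. For the difference between stages, stg alone was called, at -0.75 (SE 0.14), with 4.30% of all genes lower and 3.41% higher. This call was lost without either early library, and without stage 13-16 replicate 2, 16 genes were called lower and 1 higher. Without stage 13-16 replicate 1, 3 were called higher.

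Cells were then thinned to 1000 UMIs each so that shares could be compared across depths. Of neural progenitor-like cells, 84.4% and 74.95% held UMIs of at least 5 of the 40 genes at stages 10-12, and 64.6% and 95.75% at stages 13-16. The same share in removed droplets was 42.6% and 45.2% and then 2.35% and 16.1%. Germ cell-like cells had 48.3% and 55.6% at stages 10-12 and 34.8% and 55.8% at stages 13-16. Germ cells therefore lay above the removed droplets in each library, by a wide margin only at stages 13-16. Epidermis-like cells had 34.1% and 39.6% and then 2.30% and 10.05%, muscle-like cells 25.1% and 25.1% and then 2.06% and 7.57%, and neuron-like cells 29.9% and 33.2% and then 1.32% and 9.43%. These 3 classes were below the removed droplets of their own library in every case. Because broken or small cells may be among those droplets, whether such shares are background was not tested. Of these classes, 0 to 81 cells of a library were too shallow and were left out, and 31 to 1332 removed droplets. Before thinning, the mean share over the 4 libraries was 97.5% for neural progenitors, 88.9% for germ cells, 81.1% for epidermis, 77.9% for muscle, 67.0% for neurons and 58.5% for removed droplets.

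**Figure D5:**
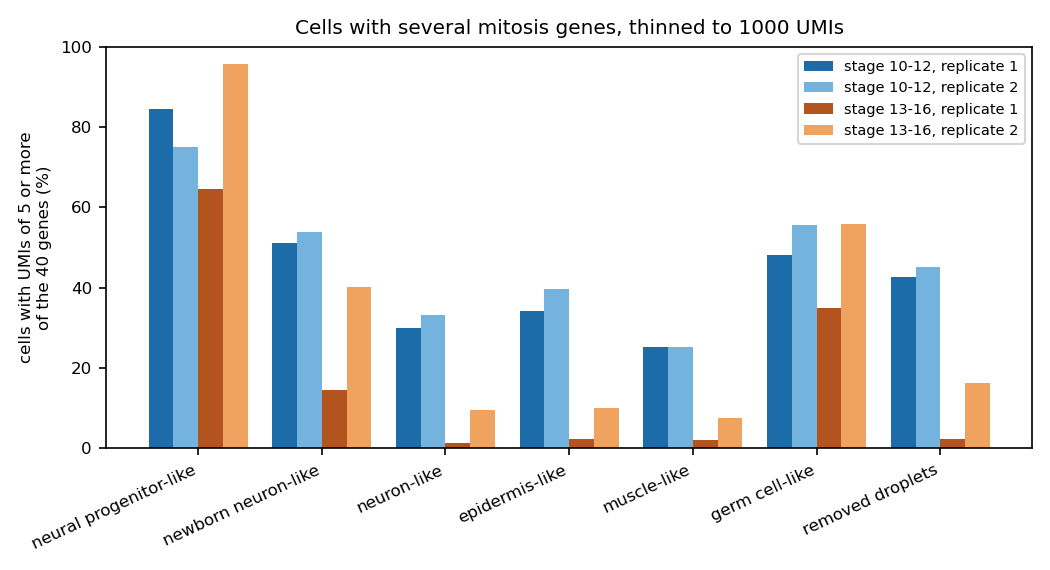
Percent of cells with UMIs of at least 5 of the 40 mitosis genes after thinning to 1000 UMIs (y axis, from 0) in each class shown and in removed droplets (x axis), with a bar for each library. Neural progenitor-like cells reach 64.6% to 95.75%, and removed droplets 2.35% to 45.2%.

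Single genes were seen in fewer cells. At 1000 UMIs, CycA had a UMI in 44.7% (95% Clopper-Pearson interval 40.2% to 49.2%) and 27.2% (23.5% to 31.1%) of neural progenitors at stages 10-12, and in 40.7% (31.6% to 50.4%) and 65.1% (58.3% to 71.5%) at stages 13-16. Removed droplets had 18.9%, 16.7%, 7.27% and 14.2%. Unthinned, the neural progenitor shares were 76.8%, 54.95%, 81.4% and 100%. CycB had a UMI in 44.8%, 33.3%, 50.1% and 48.1% of germ cells, against 26.5%, 24.6%, 8.88% and 15.3% of removed droplets. stg had a UMI in 54.2%, 59.05%, 40.5% and 65.05% of epidermis-like cells, and in 46.8%, 51.0%, 31.1% and 70.55% of removed droplets. For stg the share in epidermis was above that in removed droplets in 3 libraries and below it in stage 13-16 replicate 2. The intervals cover counting error only.

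Genes of related lists, chosen by function, were read off the same fits. Of all genes tested, 31.0% were called higher and 42.5% lower in neural progenitors than in the remaining cells, 13.3% and 15.3% in germ cells and 29.6% and 38.0% in muscle, while over all cells 11.3% rose and 9.51% fell between the stages. Of 52 other mitosis genes, among them further kinetochore, centrosome, cohesin and anaphase-promoting complex genes, 51 were called higher in neural progenitors than in the remaining cells and 1 lower, with a median difference of 1.73. Over all cells 37 of them fell and 1 rose between the stages, with a median change of -1.14. Both exceptions were cana, a kinesin related to CENP-E, with a difference of -1.54 (SE 0.21) in neural progenitors and a rise of 2.13 (SE 0.35) over all cells. Within neural progenitors none of the 52 was called in either direction between the stages (edgeR, 3 at an unadjusted p under 0.05, without a share of all genes). Of 12 DNA replication genes, all were called higher in neural progenitors, with a median of 3.47, and 11 fell over all cells. CycE, the cyclin of S phase entry, differed in neural progenitors by 3.87 (SE 0.09), more than any of the 40 mitosis genes. All 12 replication genes were called lower in muscle than in the remaining cells, and 8 were called higher in germ cells.

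Of 7 genes that hold the cycle back, 6 were called higher in neural progenitors and none lower, and 4 fell over all cells (Rbf, rux, trbl and dap). trbl, which promotes the breakdown of stg protein, fell by 1.56 (SE 0.21) on the log2 scale. Wee1, the kinase that inhibits Cdk1, was the only one of the 7 called higher in germ cells, at 1.34 (SE 0.29), and was called lower in muscle, at -0.44 (SE 0.11). dap, the p21-type inhibitor of cyclin E and Cdk2, was higher in neural progenitors than in the remaining cells (1.12, SE 0.07) and lower in muscle (-0.46, SE 0.06) and germ cells (-1.21, SE 0.23). fzr, the Cdh1 activator that keeps mitotic cyclins low in G1, was higher in muscle (1.09, SE 0.06) and lower in germ cells (-0.96, SE 0.23), and its difference of 0.02 in neural progenitors did not pass. Between the stages dap fell in epidermis by 1.17 on the log2 scale, while fzr changed there by 0.06 (interval -0.55 to 0.67) and did not pass.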

How the data were processed

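The 40 genes and all other lists were chosen with earlier results of these data known. Reads were processed by the authors with Cell Ranger 6.1.2 and Seurat, per the submitters' processing notes, and the deposited values are UMI counts of 17875 genes per barcode, not normalized; 17800 genes had a symbol. All entries were found to be whole numbers.

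Barcodes above a mitochondrial share of 25% were dropped, and the rest were clustered per library (Louvain in igraph 0.11.9 on shared neighbours, Python 3.11.15) on 30 components of 2000 variable genes with 20 neighbours at a resolution of 0.8. Clusters with under 50 marker genes (log2 over 0.25, seen in 10% of cells or more) were set aside as probable empty droplets, which took 23.2% to 41.0% of barcodes. Doublets were called by the excess of simulated pairs among a cell's neighbours over the median of its cluster, at a share of 0.008 per 1000 cells, and were 6.35% to 23.6% of the remainder. The cells of a stage were aligned across libraries with an implementation of Harmony and clustered together at a resolution of 2, and 111 genes, the members and other cell cycle genes among them, were kept out of the variable genes. Stages gave 45 and 47 clusters, of which 43 and 45 were named; 347 and 454 cells stayed unnamed. A name needed a score of at least 0.75 over its 5 best markers and at least 3 detected markers.

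UMIs were summed per library and class, and tested with edgeR 4.0.16 (R 4.3.3, limma 3.58.1) after TMM scaling and its expression filter, with Benjamini-Hochberg adjustment over all genes tested and a threshold of 0.05. Stages were compared with 2 libraries each. Classes were compared with library as a block and a class-by-stage term, the difference between stages. Tests needed at least 10 cells per class and library, levels at least 20. SE is the log2 fold change divided by the square root of F. The p-values of the stage tests measure the spread between libraries of the same stage. Those of the class tests measure how far the difference between classes within a library varies among libraries of the same stage. Both also rest on a dispersion estimated over many genes, with a common value of 0.00497 for neural progenitors against the remaining cells. Very small p-values therefore do not come from the spread of a single gene alone. Alternatives were RLE scaling, DESeq2 1.42.0, no expression filter beyond 1 UMI, each library left out, no doublets removed, at least 1000 UMIs in place of the removal of clusters, a resolution of 1, no thinning, and the replicate number as a block. Those added after seeing the data were removed droplets as the reference or in place of cells, neurons without newborn neurons, and a crossed block. Unless a share of all genes is printed beside it, a count of genes called under an alternative is given without one. The fits were tested on simulated counts. Named in full were CycA, CycB, CycB3, stg, fzy and Cdk1 and, in each test, the 3 largest called rises and falls; dap, fzr and CycE were named from the other lists, and further genes there (cana, Rbf, rux, trbl, Wee1) after their values were seen. Promoter motifs were not analysed here.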

Additional observations from a re-analysis of the deposited data

Results flagged for a closer look

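The results in this part come from the test of the class-by-stage term in edgeR, which compares a class with its reference at stages 13-16 and at stages 10-12. Against the remaining cells, the difference of neural progenitor-like cells was larger at stages 13-16 for 39 of the 40 mitosis genes. The term was 1.22 for CycA, 1.10 for CycB, 1.29 for CycB3, 1.12 for Cdk1, 0.56 for stg and 1.73 for fzy on the log2 scale. Against neurons it was called higher for 35 genes, with 0.97 for CycA, 0.79 for CycB, 0.81 for CycB3, 0.88 for Cdk1, 0.56 for stg and 0.87 for fzy.

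For germ cell-like cells against the remaining cells, the term was called higher for 20 genes, with 1.96 for CycA, 2.20 for CycB, 2.10 for CycB3 and 1.56 for fzy. For muscle-like cells it was called lower for 1 gene, stg, at -0.75. These terms share the remaining cells, whose mitosis gene levels were themselves lower at stages 13-16.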

How the results depend on the processing

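Of 348 recomputed counts and shares, 288 stayed within 1.5 times or the spread, and 60 moved. Of 913 recomputed values of single genes, 816 kept their direction and side of the threshold, 41 lost a call, 23 gained one and 33 changed sign, of which 0 had an adjusted p up to 0.05. Where no cause is given it was not tested. Except for the replicate blocks, counts of genes called are given in this part without the number of all genes called in that setting. A change in such a count therefore cannot be told apart from a change in calls over all genes.

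With no doublets removed, where the neural progenitor-like cluster of stages 13-16 held 3489 cells, 13 genes were called lower between the stages in neural progenitors and 1 in germ cells. The difference between stages was called higher for 13 genes in neural progenitors, 0 against neurons and 35 in germ cells, and for muscle 2 were called higher and 0 lower. Against the remaining cells 6 were then higher and 3 lower in epidermis, and 3 lower in germ cells. Changes of sign were -0.84 for CycA in neural progenitors between the stages, 0.050 for stg in epidermis, -0.17 for CycB and -0.37 for CycB3 in germ cells, and, for epidermis against the remaining cells, 0.085 for CycB3, 0.14 for fzy and 0.091 for Cdk1.

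With at least 1000 UMIs in place of the removal of clusters, 6 genes were higher between the stages in neural progenitors, with CycB at 0.059 and CycB3 at 0.44, and stg in epidermis was at 0.078. For epidermis against the remaining cells 3 were higher and 3 lower, with CycB3 at 0.030, fzy at 0.065 and Cdk1 at 0.012. The term for germ cells was called for 1 gene, and 1 was lower in neural progenitors than in neurons. At a clustering resolution of 1, where 2873 cells of stages 13-16 were neural progenitors, 1 gene was higher between the stages in them, with CycB3 at 0.16, and 24 were higher and 1 lower than in neurons. In muscle 0 then had a lower term, and 1 was lower in germ cells.

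Without a filter beyond 1 UMI, CycA changed by -0.011 between the stages in neural progenitors, 8 genes were lower in epidermis, and 16 were higher and 1 lower in germ cells. With RLE scaling 1 gene was lower in germ cells and 7 had a higher term there, and with DESeq2 1 and 12. RLE moved the median of all genes in the stage term from -0.17 to -0.03 for epidermis and from 0.20 to -0.01 for germ cells. The share of calls that were higher moved from 83.3% to 94.4% between the stages in germ cells, from 100% to 61.5% for the epidermis term and from 56.0% to 37.1% for the germ cell term.

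With removed droplets as the reference, 23 genes had a higher term in neural progenitors and 1 in germ cells, 10 were lower in epidermis and 2 in germ cells. In epidermis CycA was then at 0.017, CycB at -0.015 and CycB3 at 0.021, in muscle Nuf2 was at -0.14, and between the stages stg was at 0.091 in the droplets themselves. Without thinning, the mean shares of cells with at least 5 genes were 97.5% for neural progenitors, 67.0% for neurons, 81.1% for epidermis, 77.9% for muscle, 88.9% for germ cells and 58.5% for removed droplets.

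Leaving out each library in turn gave 0 to 2 genes higher and 0 to 3 lower between the stages in neural progenitors, where CycA ranged from -0.17 to 0.23, CycB from -0.55 to 0.031, stg from -0.18 to 0.97 and fzy from -0.56 to 0.044. stg ranged from -0.71 to 0.12 over all cells and from -0.60 to 0.26 in epidermis. In germ cells CycA ranged from -0.073 to 1.21, CycB3 from -0.21 to 0.37 and stg from -0.034 to 0.80. Against the remaining cells, 0 to 8 genes were higher and 1 to 8 lower in epidermis, with CycB3 from -0.076 to 0.042, and 0 to 16 had a lower term. In muscle 1 to 4 were higher, with 0 to 3 higher and 0 to 16 lower terms. In germ cells 15 to 18 were higher, below the 25 with all libraries, 0 to 1 lower, and 10 to 20 had a higher term.

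The replicate numbers pair no samples by the labels, and deviations of same-numbered libraries had a correlation of -0.31 over 12060 genes. With the replicate number as a block, 34 genes fell over all cells, 34 in epidermis and 34 in muscle, and 0 were called in neural progenitors and 0 in germ cells. Of all genes, 428 then fell over all cells, 639 in epidermis and 950 in muscle. With the pairing crossed the counts were 36, 38, 33, 0 and 0. Of all genes, 1402 then fell over all cells, 1624 in epidermis and 1294 in muscle.

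With 2 libraries per stage, precision rested on the difference between replicates. Neural progenitor-like cells numbered 113 and 212 at stages 13-16 and germ cell-like cells 144 and 81 at stages 10-12, and scarce genes rested on few UMIs in those germ cells, with 13 and 8 for cid and 6 and 9 for Bub1. The clusters could follow cell cycle genes outside the lists kept out of them.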
